A study of Mus musculus with 16 samples.

Results

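The 9 genes described here, Dpp4, Pi16, Cd55, Anxa3, Sema3c, Wnt2, Cd34, Cd248 and Efhd1, are markers of the interstitial progenitors of adipose tissue, and they were followed by name through a deposited table of 54532 genes. They were selected on known marker roles with their levels in these same libraries already seen, so their changes in either mouse line are given as a description and not as a test. The tissue was inguinal white fat (iWAT), the subcutaneous fat pad of the groin, sequenced as bulk RNA from male mice that were 8 to 10 weeks old at the start. Has2_TG mice (Apn-Has2) carry Apn-rtTA and TRE-Has2, and PH20_TG mice (Apn-PH20) carry Apn-rtTA and TRE-PH20. Their littermate controls, Has2_WT and PH20_WT, carry Apn-rtTA alone, so the rtTA allele is common to all 4 groups, and all animals ate chow with 200 mg/kg doxycycline for 5 days. rtTA is a transcription factor that needs doxycycline, and the adiponectin promoter limits it to adipocytes, so the transgenes are driven in adipocytes and not in the progenitors that the 9 genes mark. Has2 makes the matrix polysaccharide hyaluronan and PH20, encoded by Spam1, cuts it, and the comparisons ask how the tissue responds to more or to less of it. Each group had 4 libraries, with 14421692 to 26751729 reads on genes.

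Fibroblast-like progenitors lie between the lobules of fat, in the interstitial reticulum, and around vessels. Those of the interstitium are marked by the surface peptidase DPP4 and by Pi16, and can give rise to the committed preadipocytes marked by Icam1, Dlk1 and Pparg. In bulk tissue, a lower level of such a marker can come from fewer cells of the type or from less RNA per cell, and the data cannot tell these apart. The summed level of 10 adipocyte genes was 8685 to 25220 FPKM per library (FPKM are fragments scaled by the length of the gene in kilobases and by the size of the library), and those genes were detected in all 16 libraries, as the tissue label requires. All 9 progenitor markers had at least 1 read in each library and passed the minimum of a mean of 50 reads in each comparison.

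Some libraries stood apart. B cell genes (8 genes) summed to 315 FPKM in Has2_WT1, 252 in Has2_WT2, 322 in PH20_WT1 and 119 in PH20_WT3, and to at most 6.11 in each of the other 12, and T cell genes were high in the same 4 control libraries. Skeletal muscle genes (10 genes) ranged from 7.92 FPKM in Has2_TG3 to 1086 in PH20_WT2. Has2, the gene that the Apn-Has2 transgene encodes, was at 2.59 ± 0.631 FPKM (SD, n = 4) in Has2_TG and 0.585 ± 0.176 in Has2_WT, but it was also at 3.32 in the library labelled PH20_TG1 and at 3.26 in PH20_TG4. In PH20_TG2 and PH20_TG3, Has2 was at 0.380 and 0.0990 FPKM, the latter from 7 reads and the lowest of all libraries. Within PH20_TG, Has2 was thus high and low in the same libraries as the progenitor markers, and the cause was not tested. The Has2_TG libraries were at 1.86 to 3.24, so the level of Has2 alone did not set them apart. Reads of the transgene were not told from those of the native gene. Spam1 had 6, 12 and 5 reads in PH20_TG2, PH20_TG3 and PH20_TG4. It had 0 reads in the library labelled PH20_TG1, as in the other 12 libraries, and 0 reads allow up to 3, so that label was not borne out by its transgene at this depth.

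The start regions of 7 of the 9 genes were matched in the RefSeq table (GRCm38.p6), and the 250 bases before the start of 3 of them are shown, because Dpp4 and Pi16 varied most together with each other and Cd55 varied least of the 9. They lie at chr2:62412232-62412481 (minus strand) for Dpp4, at chr17:29318632-29318881 (plus strand) for Pi16 and at chr1:130462745-130462994 (minus strand) for Cd55, each written 5′ to 3′ on the strand of the gene. Capitals mark matches, on either strand, to 5 motifs. These were TATAAA, known as the TATA box, GGGCGG, the box that Sp1 binds, TGANTCA, the site of the AP-1 factors, GGAATG, the site of the TEAD factors, and CCAAT, the box that NF-Y binds.
Dpp4: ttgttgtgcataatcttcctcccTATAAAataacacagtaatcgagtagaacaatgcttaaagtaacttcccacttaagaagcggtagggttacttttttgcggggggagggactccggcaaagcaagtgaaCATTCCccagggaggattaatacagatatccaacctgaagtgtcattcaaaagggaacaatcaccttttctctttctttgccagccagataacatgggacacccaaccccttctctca
Pi16: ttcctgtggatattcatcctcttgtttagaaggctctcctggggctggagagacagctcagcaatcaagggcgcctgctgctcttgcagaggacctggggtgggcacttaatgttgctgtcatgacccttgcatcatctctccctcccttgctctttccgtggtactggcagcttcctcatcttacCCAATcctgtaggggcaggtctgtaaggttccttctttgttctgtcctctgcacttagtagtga
Cd55: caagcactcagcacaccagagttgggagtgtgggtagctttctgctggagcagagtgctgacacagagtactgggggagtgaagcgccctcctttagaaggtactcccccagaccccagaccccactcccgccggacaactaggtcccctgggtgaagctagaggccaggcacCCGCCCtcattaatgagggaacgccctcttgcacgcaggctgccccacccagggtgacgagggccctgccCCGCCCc
Over the 7 windows, GGGCGG was found in 4 (Cd55, Efhd1, Sema3c and Wnt2), against 32.7% of 32851 such windows. CCAAT was found in 2 (Pi16 and Wnt2; 33.8% of all windows), TATAAA in 1 (Dpp4; 12.4%), GGAATG in 1 (Dpp4; 12.6%) and TGANTCA in 0 (6.75%), and the window of Cd34 held none of the 5. The share of G and C went from 43.6% in Dpp4, 46.4% in Cd34 and 52.4% in Pi16 to 60.8% in Efhd1, 63.6% in Wnt2, 64% in Cd55 and 78.4% in Sema3c, with a median of 52.4% over all windows. The 3 windows lowest in G and C held 4, 6 and 2 CpG, and Sema3c held 39. The members thus shared no motif of the 5 and no base composition in this window. The windows follow the RefSeq starts, which can differ from the gene positions given below. By those positions the Sema3c window (17574566 to 17574815) lay inside the gene, which starts at 17574281. The Wnt2 window (18030446 to 18030695) overlapped the gene, which reaches 18030585 on the minus strand. Those of Pi16 and Cd34 ran a few bases into the gene.

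Levels differed widely between the 9 genes. On the FPKM scale, which is per length, the medians over the 16 libraries were 95.5 for Pi16, 48.0 for Cd248, 31.7 for Anxa3, 26.9 for Cd34, 16.2 for Efhd1, 10.5 for Cd55, 10.4 for Dpp4, 8.94 for Sema3c and 3.95 for Wnt2. Has2_WT had the lowest mean of the 4 groups for all 9 genes, and Has2_TG had the highest for all but Cd55. Neighbouring means were often not separated, since the PH20_WT and PH20_TG libraries overlapped for each of the 9.

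**Figure D1:**
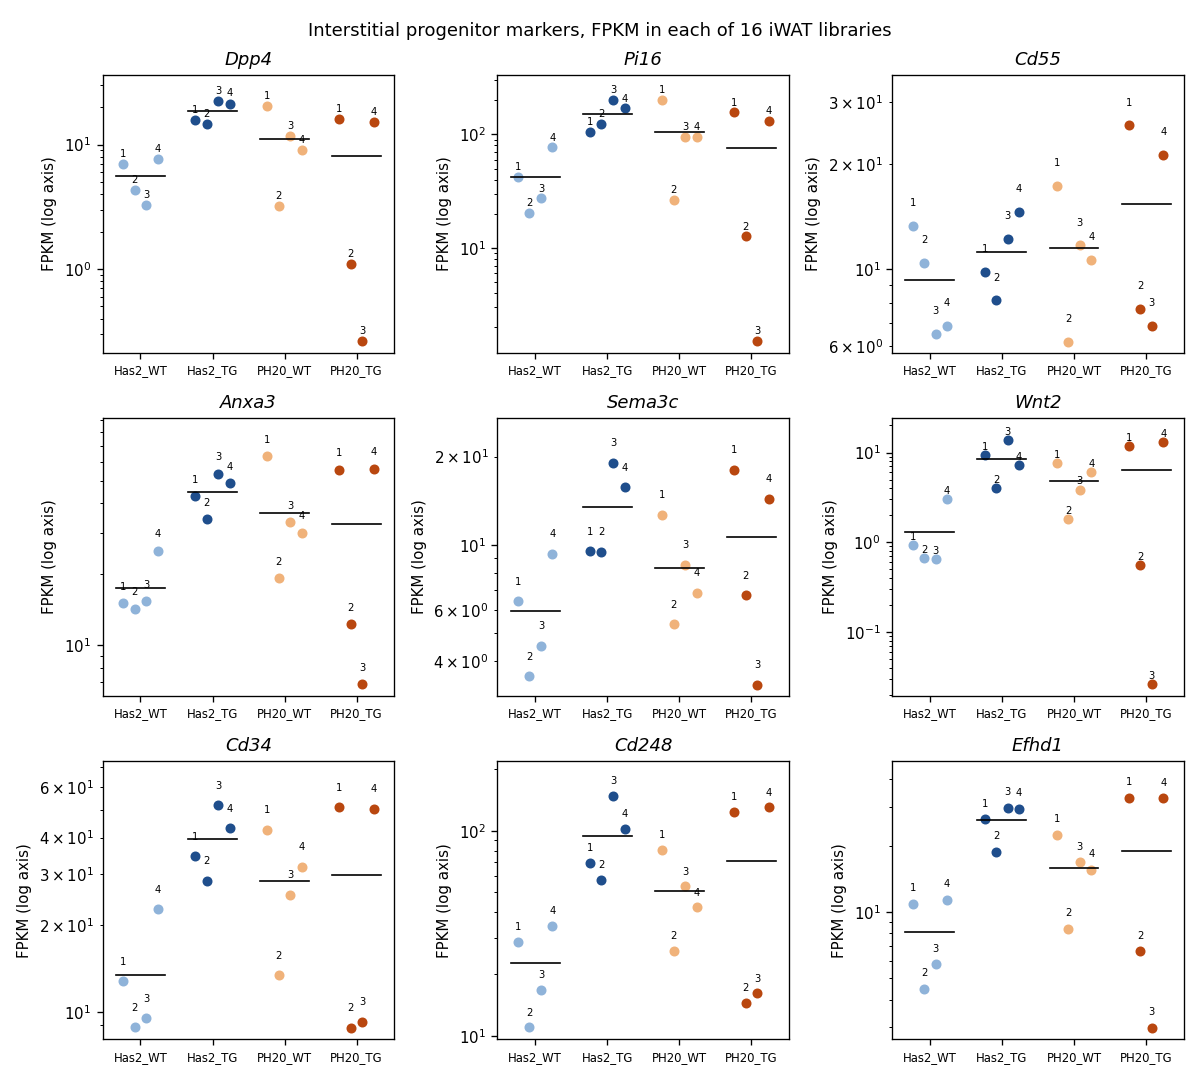
FPKM of each of the 9 markers (log axis) in the 16 libraries, by group, with the library number beside each point and the group mean as a line. In all panels but that of Cd55 the 4 Has2_TG libraries lie above the 4 Has2_WT libraries, and PH20_TG splits into libraries 1 and 4, which are high, and libraries 2 and 3, which are low.

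Of the 9 markers, 8 were higher in Has2_TG than in Has2_WT at an unadjusted p under 0.05 in limma, the threshold of the study, where 6.25% of the 12606 genes tested were called higher. After Benjamini-Hochberg adjustment over all genes 0 of the 9 were called, and 0.103% of all genes were called higher. For the same 8 genes the lowest Has2_TG library exceeded the highest Has2_WT library, which held for 4.08% of all genes. The median log2 fold change of the 9 genes was 1.75, against -0.03 over all genes tested. The choice of the genes used this contrast, so nothing is read from these counts.

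The surface proteins come first. Dpp4 (ENSMUSG00000035000, GRCm38 chromosome 2, 62330073 to 62412231) encodes a membrane peptidase that clips dipeptides from chemokines and incretins, and it is the marker by which these progenitors are usually sorted. In libraries 1 to 4, Dpp4 FPKM was 7.03, 4.35, 3.29 and 7.66 in Has2_WT and 15.6, 14.6, 22.4 and 21.4 in Has2_TG. All Has2_TG libraries were thus above the controls, with a log2 fold change of 1.77 (SE 0.28). In the PH20 line, Dpp4 FPKM was 20.5, 3.23, 11.7 and 9.06 in PH20_WT and 16.1, 1.09, 0.266 and 15.2 in PH20_TG. The library labelled PH20_TG1 and PH20_TG4 fell inside the range of PH20_WT, PH20_TG2 and PH20_TG3 lay below it, and the log2 fold change was -1.53 (SE 1.22). The low value of PH20_TG3 stands for 28 reads.

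Cd34 (ENSMUSG00000016494, chromosome 1, 194938819 to 194961279) encodes a sialomucin of stem and progenitor cells that endothelium also carries. Its FPKM was 12.7, 8.86, 9.50 and 22.6 in Has2_WT and 34.5, 28.4, 51.8 and 43.1 in Has2_TG, with no overlap and a log2 fold change of 1.62 (SE 0.30). In PH20_WT it was 42.5, 13.4, 25.4 and 31.7, and in PH20_TG 50.9, 8.79, 9.22 and 50.4. Here 2 PH20_TG libraries were above all PH20_WT libraries and the other 2 below them, which left a log2 fold change of -0.28 (SE 0.66). Of 10 endothelial genes, 0 passed the test in the Has2 line, where 6.25% of all genes were called higher. Of these 10, 9 had a log2 fold change above 0, with a median of 0.26. In the PH20 line 1 of the 10 (Egfl7) was called higher, where 3.20% of all genes were. There 8 were above 0, with a median of 0.115, and 1 call says little about the list. The antisense gene Gm16897 overlaps Cd34 and had 23 to 133 reads per library, and whether the counting used strand is not given in the sources used here.

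Cd248 (ENSMUSG00000056481, chromosome 19, 5068078 to 5070637) encodes endosialin, a C-type lectin-like receptor of stromal cells that binds matrix proteins. Its FPKM was 28.8, 11, 16.8 and 34.4 in Has2_WT and 69.7, 57.5, 147 and 102 in Has2_TG. The groups did not overlap and the log2 fold change was 2.08 (SE 0.39), the second highest of the 9. In PH20_WT, Cd248 FPKM was 80.9, 25.9, 53.7 and 42.4, and in PH20_TG it was 124, 14.5, 16.1 and 130. The PH20_TG libraries lay on both sides of the controls, with a log2 fold change of -0.08 (SE 0.78).

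Cd55 (ENSMUSG00000026399, chromosome 1, 130439027 to 130462744) encodes decay accelerating factor, a membrane protein that limits complement on the cell that carries it and is not restricted to progenitors. Its FPKM was 13.3, 10.4, 6.53 and 6.87 in Has2_WT and 9.78, 8.12, 12.2 and 14.5 in Has2_TG. It was the only one of the 9 whose groups overlapped, with a log2 fold change of 0.29 (SE 0.27). The 2 highest Has2_WT values belonged to the libraries rich in B cell genes. Without those 2 libraries, a choice made after seeing the data, the log2 fold change was 0.69, and with a B cell score as covariate it was 0.66. In PH20_WT, Cd55 FPKM was 17.3, 6.18, 11.7 and 10.6, and in PH20_TG 25.7, 7.68, 6.85 and 21.2, with a log2 fold change of 0.28 (SE 0.48). The paralog Cd55b had 0 to 8 reads per library.

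The secreted proteins come next. Wnt2 (ENSMUSG00000010797, chromosome 6, 17988940 to 18030585) encodes a ligand of Frizzled receptors. Its FPKM was 0.928, 0.661, 0.653 and 3.02 in Has2_WT and 9.32, 4.03, 13.6 and 7.17 in Has2_TG. The groups did not overlap, and the log2 fold change of 2.76 (SE 0.51) placed Wnt2 at rank 2 of 12606 genes from the top. In PH20_WT, Wnt2 FPKM was 7.59, 1.83, 3.87 and 6, and in PH20_TG 11.7, 0.557, 0.0266 and 13.1, where 0.0266 was 1 read. The libraries labelled PH20_TG1 and PH20_TG4 were above the whole of PH20_WT and the other 2 below it, and the log2 fold change was -1.20 (SE 1.41). It was 0.10 without PH20_TG3.

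Pi16 (ENSMUSG00000024011, chromosome 17, 29318877 to 29329413) encodes a CAP domain protein that is a general marker of adventitial and interstitial fibroblasts. It was the most abundant of the 9, at 42.4, 20.4, 27.5 and 76.7 FPKM in Has2_WT and 106, 124, 201 and 170 in Has2_TG. Again the groups did not overlap, with a log2 fold change of 1.98 (SE 0.38). In PH20_WT, Pi16 FPKM was 201, 26.6, 95.4 and 95.6, and in PH20_TG 157, 12.7, 1.53 and 132. PH20_TG2 and PH20_TG3 were below all PH20_WT libraries and the other 2 within their range, with a log2 fold change of -1.70 (SE 1.38) that was -0.38 without PH20_TG3.

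Sema3c (ENSMUSG00000028780, chromosome 5, 17574281 to 17730268) encodes a class 3 semaphorin, a secreted guidance cue that acts through neuropilins and plexins. Sema3c FPKM was 6.42, 3.56, 4.53 and 9.34 in Has2_WT and 9.50, 9.48, 19.1 and 15.7 in Has2_TG. The groups were separated by a small gap, between 9.34 and 9.48, and the log2 fold change of 1.19 (SE 0.33) was the lowest of the 8. In PH20_WT, Sema3c FPKM was 12.7, 5.35, 8.55 and 6.86, and in PH20_TG 18.1, 6.73, 3.33 and 14.4, with a log2 fold change of 0.14 (SE 0.51).

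The intracellular proteins bind calcium. Anxa3 (ENSMUSG00000029484, chromosome 5, 96793339 to 96845966) encodes an annexin that binds membrane phospholipids. Anxa3 FPKM was 15.0, 14.3, 15.3 and 25.2 in Has2_WT and 42.8, 34.3, 53.5 and 48.7 in Has2_TG. It had the smallest standard error of the 9 in this line, with a log2 fold change of 1.38 (SE 0.22) and no overlap. In PH20_WT, Anxa3 FPKM was 63.4, 19.2, 33.3 and 30.0, and in PH20_TG 55.6, 12.3, 6.81 and 56.2, with a log2 fold change of -0.55 (SE 0.71).

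Efhd1 (ENSMUSG00000026255, chromosome 1, 87264363 to 87310839) encodes a mitochondrial EF-hand protein. Efhd1 FPKM was 10.9, 4.48, 5.79 and 11.4 in Has2_WT and 26.4, 18.8, 29.7 and 29.5 in Has2_TG. The groups did not overlap, and the log2 fold change was 1.75 (SE 0.31). In PH20_WT, Efhd1 FPKM was 22.4, 8.37, 16.8 and 15.6, and in PH20_TG 33.0, 6.62, 2.99 and 32.8, with a log2 fold change of -0.29 (SE 0.75). As for Cd34 and Cd248, 2 PH20_TG libraries were above and 2 below all of PH20_WT.

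**Figure D2:**
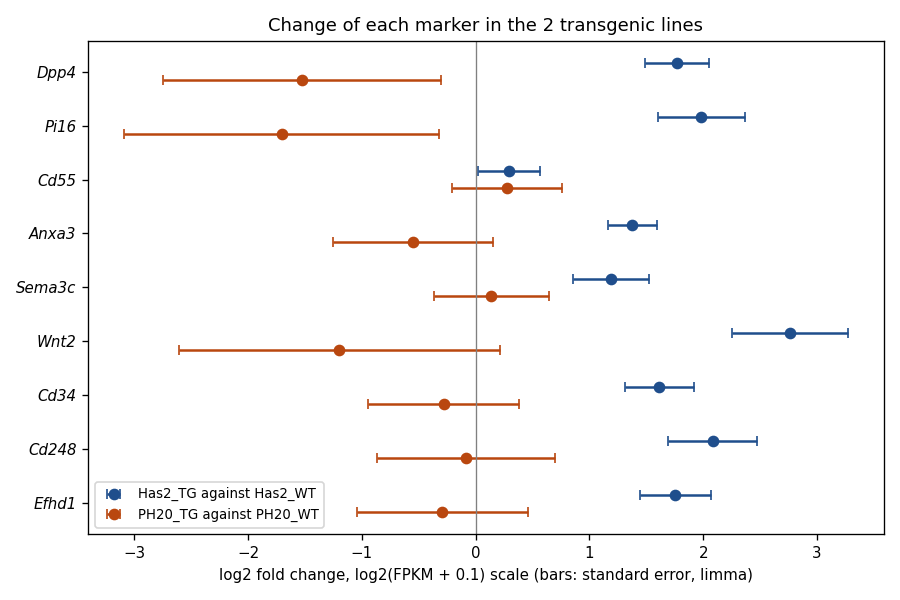
Log2 fold change of each marker on the log2(FPKM + 0.1) scale, Has2_TG against Has2_WT in blue and PH20_TG against PH20_WT in orange, with bars for the standard error from limma (4 libraries per group). The Has2 values run from 0.29 (Cd55) to 2.76 (Wnt2), and the PH20 values from -1.70 (Pi16) to 0.28 (Cd55) with wider bars.

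Of the 9 markers, 0 were called in PH20_TG against PH20_WT at an unadjusted p under 0.05 in limma, where 6.59% of 12532 genes were called in either direction. None passed after adjustment. The median log2 fold change of the 9 was -0.29, with 2 of them (Cd55 and Sema3c) above 0. The spread within PH20_TG was the main feature of this comparison, and it was not particular to the 9. From PH20_TG1 to PH20_TG4, as labelled, the mean log2(FPKM + 0.1) of the 9 was 5.25, 2.50, 1.39 and 5.17. For 35 other genes of interstitial progenitors it was 4.66, 2.05, 1.46 and 4.70. Between the library labelled PH20_TG1 and PH20_TG3, FPKM differed 102-fold for Pi16, 60.5-fold for Dpp4, 11-fold for Efhd1, 8.17-fold for Anxa3, 7.68-fold for Cd248, 5.52-fold for Cd34, 5.42-fold for Sema3c and 3.76-fold for Cd55. For Wnt2 the ratio was 442, with a 95% exact counting interval from 78.9 to 17495.3 because PH20_TG3 had 1 read, and this interval covers counting error only. Between the same libraries, 11 general progenitor genes differed from 0.932-fold (Lum) to 6.04-fold (Cd44), with 4.22-fold for Col1a1, 3.78-fold for the proteoglycan Dcn and 2.56-fold for Pdgfra, a range that overlaps that of Cd34, Sema3c and Cd55. Against PH20_TG2, the ratios of the library labelled PH20_TG1 were 21.1 for Wnt2, 14.7 for Dpp4, 12.3 for Pi16 and 8.55 for Cd248, and the other 5 markers, at 2.68 to 5.79, lay within the range of the general progenitor genes, which reached 6.63 for Pdgfra. Macrophage genes (8 genes) also differed, at 2108 FPKM in the library labelled PH20_TG1, 257 in PH20_TG2, 422 in PH20_TG3 and 852 in PH20_TG4, and their part in the spread was not tested. Without the library labelled PH20_TG1, 0 of the 9 were called as well, and the log2 fold changes of Dpp4 and Pi16 were -2.30 and -2.57.

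**Figure D3:**
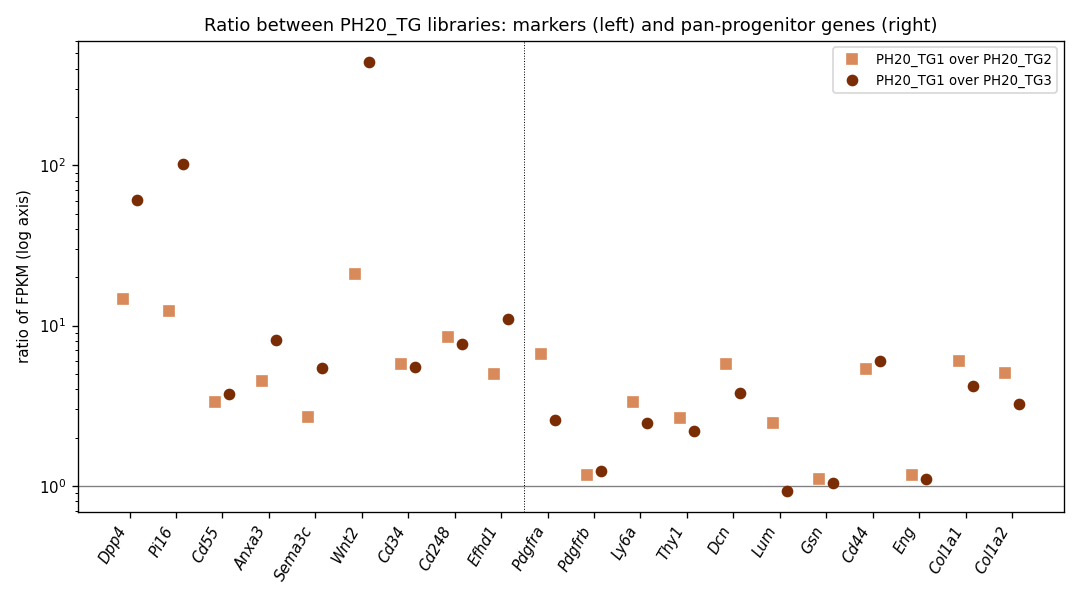
Ratio of FPKM (log axis) of the library labelled PH20_TG1 over PH20_TG2 (squares) and over PH20_TG3 (circles), for the 9 markers on the left of the dotted line and 11 pan-progenitor genes on the right. The ratios over PH20_TG3 reach 442 for Wnt2, where PH20_TG3 had 1 read, and 102 for Pi16, and run from 0.932 (Lum) to 6.04 (Cd44) for the pan-progenitor genes.

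The controls of the lines also differed in level. All 9 markers had a higher mean in PH20_WT than in Has2_WT, with log2 differences from 0.27 (Cd55) to 1.90 (Wnt2), but 0 of them were called in the fit of all 16 libraries, where 4.66% of 12593 genes were called higher. Line, litter and any difference in handling between the studies cannot be told apart here. Within PH20_WT, library 1 exceeded library 2 by 7.55-fold for Pi16 and 6.36-fold for Dpp4, so the controls alone spanned a wide range.

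The change in the Has2 line minus that in the PH20 line was positive at an unadjusted p under 0.05 for 7 of the 9 (all but Cd55 and Sema3c), where 4.03% of all genes were called positive, and for 0 after adjustment (lowest adjusted p = 0.613, limma). This difference contains the contrast that the choice of the genes had in view. The count moved with single libraries: 0 of the 9 were called without PH20_TG2, 1 without PH20_WT1 and 3 without Has2_WT2, Has2_TG3 or PH20_TG3. It was 4 without Has2_WT3, 5 without Has2_TG4 or PH20_WT3, and 8 without the library labelled PH20_TG1. The count over all genes moved as well, from 507 of 12593 called positive with all libraries. It was 322 of 12592 without PH20_TG2, 323 of 12615 without PH20_TG3 and 404 of 12508 without PH20_WT1. Without PH20_WT3 it was 415 of 12578, without Has2_WT3 423 of 12615 and without Has2_WT2 424 of 12590. Without Has2_TG3 it was 436 of 12601, without Has2_TG4 442 of 12586 and without the library labelled PH20_TG1 759 of 12572.

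In the Has2 line, with each of the 8 libraries left out in turn, 8 of the 9 were called at the unadjusted threshold each time. All genes called higher in these fits ranged from 619 of 12642 without Has2_TG3 to 880 of 12653 without Has2_WT4. The choice of the 9 used this contrast, so their persistence is given as a description. In one fit of all 16 libraries 6 were called, without Dpp4 and Pi16, where 6.37% of all genes were called higher. After adjustment, 7 were called without Has2_WT4, where 138 of 12653 genes were called higher, 5 with voom weights, where 48 of 12606 were called higher, 2 with a pseudocount of 1 (26 of 12606) and 2 with the skeletal muscle score (36 of 12606). Without Has2_WT4 the change of each of the 8 was larger than with it, from 1.43 for Sema3c to 3.24 for Wnt2 on the log2 scale.

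The 9 genes were then set beside other progenitor genes, in a contrast where 6.25% of all genes were called higher. Of 33 other interstitial genes tested, 30 rose and 0 fell in Has2_TG at the unadjusted threshold (median log2 fold change 1.48), among them the Wnt pathway regulator Dact2 (2.30, SE 0.32, limma adjusted p = 0.0384), the chemokine scavenger Ackr3 (1.68) and the hexosamine enzyme Gfpt2 (2.003). This list was also written with earlier results known. Of 11 pan-progenitor genes, 6 rose and 0 fell (median 0.84), led by Ly6a (1.31, SE 0.21), Dcn (1.58, SE 0.31) and the collagen Col1a2 (1.44, SE 0.29). Of 13 committed preadipocyte genes 0 passed the test in either direction (median -0.09), with 0.49 (SE 0.22) for Ebf2 and -0.38 (SE 0.18) for Zfp423. The full list summed to 4872 to 8067 FPKM per Has2_WT library, with Lpl at a mean of 998. The part of adipocytes in these bulk levels was not tested, so the list does not say whether committed preadipocytes changed. Of 10 genes of the CD142-positive progenitors 1 rose, Gdf10, a BMP family member, at 2.03 (SE 0.34), and 1 call says little about that list.

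From the mean log2(FPKM + 0.1) of the 9 markers, that of the 11 pan-progenitor genes was subtracted. The result was -2.35 to -1.52 in the Has2_WT libraries and -1.26 to -0.93 in Has2_TG. The choice of the 9 used this contrast, so nothing is read from that shift. In PH20_WT the result was -1.95 to -1.12. It was -1.31 in the library labelled PH20_TG1, and -2.47, -4.04 and -1.26 in PH20_TG2, PH20_TG3 and PH20_TG4. PH20_TG3 thus had the lowest marker level of the 16 although its pan-progenitor mean, 5.43, exceeded that of PH20_TG2, 4.96. With the pan-progenitor score as a covariate, 2 of the 9 were called higher in Has2_TG, Dpp4 at 0.70 (SE 0.26) and Anxa3 at 0.82 (SE 0.31), where 5.28% of all genes were called higher. In PH20_TG 4 were called lower with it, Dpp4, Pi16, Anxa3 and Cd34, but this setting also raised the share of all genes called lower to 8.27%, from 3.39% without it. With the score of the other interstitial genes, a setting added after the data were seen, 0 were called in the Has2 line, where 3.22% of all genes were called higher. In the PH20 line that score called 1 higher and 4 lower, where 635 genes were called higher and 584 lower of 12532.

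**Figure D4:**
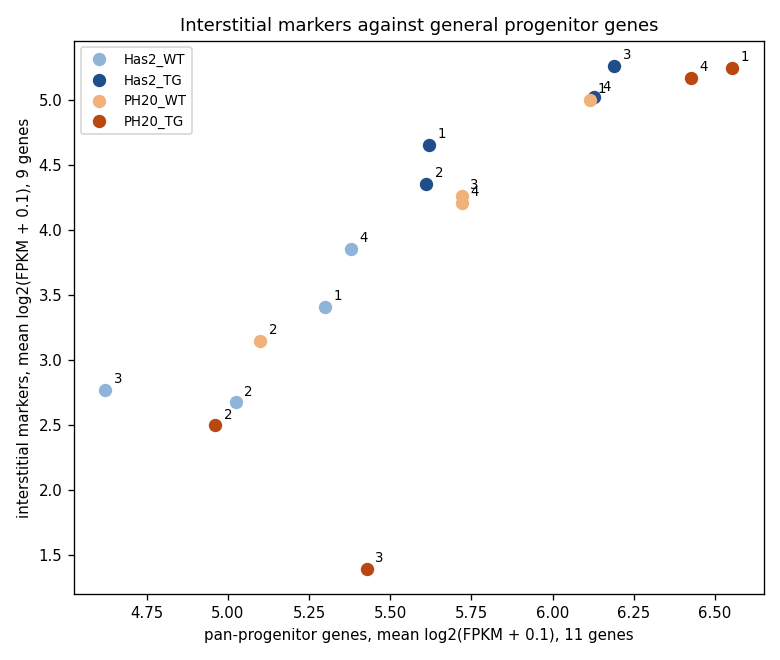
Mean log2(FPKM + 0.1) of the 9 markers against that of 11 pan-progenitor genes, 1 point per library with its number, coloured by group. The Has2_TG points lie above and to the right of the Has2_WT points, and PH20_TG3, at 5.43 and 1.39, stands apart below the others.

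Other cell types moved in part with the same contrast. Macrophage genes summed to 318 to 638 FPKM in Has2_WT and 688 to 918 in Has2_TG. Of these 8 genes 6 rose and 0 fell, where 6.25% of all genes rose, led by the complement gene C1qb (1.00, SE 0.20). With a macrophage score as covariate, 7 of the 9 markers were called higher in Has2_TG, all of the 8 but Sema3c, where 4.12% of all genes were called higher. The median log2 fold change of the 9 was then 1.11 in place of 1.75, with 1.11 for Dpp4, 1.12 for Pi16 and 1.68 for Wnt2. B cell genes fell in 3 of 8 cases and T cell genes in 2 of 8, all with overlapping groups, since 2 of the 4 controls were rich in them. With those 2 controls left out, all 9 markers were called higher, as were 5.96% of all genes. Of 10 adipocyte genes 0 rose and 1 (Slc2a4) fell, of 6 smooth muscle and pericyte genes 1 (Myh11) fell, where 3.75% of all genes fell, and of 10 skeletal muscle and 3 lymph node stroma genes 0 passed in either direction. Mesothelial genes summed to at most 3.72 FPKM in any library with 1 of 8 tested, and 0 of 6 epithelial genes passed the minimum of reads.

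In the PH20 line 3.20% of all genes were called higher and 3.39% lower, so a single call in a list of this length is no result about the list. Here 0 of 34 other interstitial genes passed the test (median log2 fold change -0.17). Of 13 committed preadipocyte genes 3 rose, the collagens Col15a1 (0.72, SE 0.13), Col4a2 (0.52, SE 0.17) and Col4a1 (0.53, SE 0.21), and of 10 CD142-positive progenitor genes 2 rose, F3 and Mgp. Among 11 pan-progenitor genes the call of Pdgfrb (0.47, SE 0.14) was the single one. Skeletal muscle genes fell in 9 of 10 cases, B cell genes in 4 of 8 and T cell genes in 5 of 8, and their part in the marker levels was not tested beyond the covariates. The test called 2 of 6 smooth muscle and pericyte genes higher (Notch3 and Cspg4), and 0 of 8 macrophage, 10 adipocyte, 4 Schwann cell, 4 lymph node stroma and 1 mesothelial genes in either direction.

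Relatives and partners of the 9 proteins are given beside the 6.25% of all genes that were called higher in Has2_TG, against which 1 or 2 calls in a list of this length say little about the list. Among Wnt ligands, receptors and targets 3 of 17 rose and 0 fell, the ligands Wnt10b (1.72, SE 0.30) and Wnt11 (1.54, SE 0.35) and the receptor Fzd2 (1.24, SE 0.45). Among class 3 semaphorins and their receptors 3 of 12 rose and 0 fell, all of them ligands: Sema3b (1.22, SE 0.27), Sema3e (1.32, SE 0.46) and Sema3d (1.18, SE 0.43). Among complement regulators, the class of Cd55, the soluble inhibitor Serping1 rose (1.49, SE 0.30). Of 3 CAP domain relatives of Pi16, Crispld1 (2.28, SE 0.37) and Glipr2 (0.67, SE 0.20) rose. Of 9 annexins and EF-hand genes Anxa1 (0.76, SE 0.24) and Efhd2 (0.39, SE 0.17) rose. Of 6 peptidases and partners of DPP4, and of 6 relatives of Cd34 and Cd248, 0 passed in either direction, with 0.47 (SE 0.23) for Fap, the peptidase most similar to DPP4.

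In PH20_TG the same lists gave few calls, and with 3.20% of all genes called higher they are read as values of single genes. Sema3f (0.54, SE 0.17) was 1 of 12 semaphorin genes called, and Vtn (fell by 0.56 on the log2 scale, SE 0.17) and Clu (fell by 1.06, SE 0.46) were 2 of 7 complement regulators. Of 17 Wnt genes, 7 DPP4 relatives, 9 annexin and EF-hand genes and 4 CAP domain genes 0 passed.

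The 9 genes varied together across libraries. Over the 16 libraries, Pearson's r of log2(FPKM + 0.1) was 0.807 to 0.982 for the 28 pairs without Cd55 and 0.606 to 0.716 for the 8 pairs with it. With group means subtracted these ranges were 0.896 to 0.980 and 0.756 to 0.884. The values are a description, since the pairs share libraries, groups and cell composition. Among 12583 other genes, those most like the mean of the 9 were Col14a1 (r = 0.993), the microfibril gene Fbn1 (0.988), Lrrn4cl (0.988), Emilin2 (0.987) and Efemp1 (0.984). After subtracting group means they were Islr2, Scara5, Fbn1, Col14a1 and Fn1, with r of 0.992 to 0.993. Their log2 fold changes in the Has2 line were 1.35 (Efemp1) to 2.19 (Fn1), and in the PH20 line -1.40 (Fn1) to -0.17 (Efemp1).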

How the data were processed

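Bulk RNA of iWAT was sequenced in 16 libraries, 4 per group. The authors made the libraries with a TruSeq kit, aligned the reads to GRCm38 with STAR (version 2.7.9a), counted them per gene, tested them with DESeq2 and deposited FPKM for each gene and library. The annotation was compared with GENCODE mouse release 21, in which 7 of the 9 genes have the same position. FPKM times gene length and library total gave whole reads (tolerance 0.01) in 100% of values. The library total behind FPKM differed from the read sum by 0.886 to 1.14, so deposited values carry a scaling between libraries. Between 120 pairs of libraries, chi-square divided by its degrees of freedom was 28.7 or more, so none was a duplicate. The labels number the libraries of a group but do not state that each came from its own animal, so p-values measure the spread between these libraries, which may be technical. They name no batch.

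limma (version 3.58.1, R version 4.3.3) was run on log2(FPKM + 0.1), two-sided, with a variance trend, over genes whose mean reached 50 reads. Each line was fitted on its own 8 libraries, and the controls and the difference between lines on all 16. Genes were called at an unadjusted p under 0.05, the study's threshold, with Benjamini-Hochberg adjustment over all genes beside it. Fold changes are on the log2(FPKM + 0.1) scale, which understates changes of low genes. The procedure was tested on simulated data. Count tools were not used, since the deposited unit is FPKM.

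The 9 genes and all gene lists were chosen with earlier results of these data known. The genes named are the 9, up to 3 per list with the smallest p in each line, the 5 most like the mean of the 9 over 16 libraries and the 5 after subtracting group means, and Has2 and Spam1. Other names of list members complete a count or were chosen after their values were seen. The alternatives were another pseudocount, quantile normalization, a minimum on mean FPKM of 1 or no minimum, voom weights on recovered reads, median-of-ratios scaling, no variance trend, the replicate number as a block, muscle, B cell or pan-progenitor scores as covariates, all 16 libraries in one fit, and each library left out. Macrophage, endothelial and other interstitial scores, and leaving out the control libraries rich in B cell genes, were added after the data were seen. A few list members are not reported here. Start regions came from RefSeq. Protein sequences were not used here.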

Additional observations from a re-analysis of the deposited data

Results flagged for a closer look

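In 36 groups of 4 values (9 genes, 4 groups), 2 had a library far from the other 3 by Dixon's test, and chance gives about 1 in 20. Anxa3 was at 25.2 FPKM in Has2_WT4, where the other Has2_WT libraries were at 14.3 to 15.3, and Wnt2 was at 3.02 FPKM in Has2_WT4, where the others were at 0.653 to 0.928. Has2_WT4 was the highest Has2_WT library for 8 of the 9 markers, Cd55 excepted.

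The change in the Has2 line minus the change in the PH20 line passed an unadjusted p under 0.05 in limma's contrast for 7 markers, none of them after adjustment (adjusted p of 0.613 to 0.614). On the log2 scale it was 3.29 for Dpp4, 3.69 for Pi16, 1.93 for Anxa3, 3.96 for Wnt2, 1.90 for Cd34, 2.17 for Cd248 and 2.05 for Efhd1. In each case the Has2_TG libraries were above all of their controls, while the PH20_TG libraries 2 and 3 were below all of theirs and the other 2 within or above them.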

How the results depend on the processing

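Of 216 values of single markers under alternatives in the Has2 line, 196 kept direction and side of the threshold, 12 lost the call, 2 gained it and 6 changed sign. In the PH20 line 180 of 216 stayed, 9 gained a call and 27 changed sign, between the controls 183 of 189 stayed and 6 gained a call, and for the difference between lines 147 of 189 stayed, 32 lost it, 1 gained it and 9 changed sign. The cause of these changes was not tested. The pan-progenitor score as covariate gave 2 markers called in the Has2 line and 4 in the PH20 line, with Cd55 at -0.34 in the Has2 line and Sema3c at -0.065 in the PH20 line. The other interstitial score gave 0 in the Has2 line and 5 in the PH20 line. Of the 5, 1 was higher and 4 lower, where 635 genes were called higher and 584 lower of 12532. With this score Pi16 was -0.32, Sema3c -0.76, Wnt2 -0.084, Cd34 -0.23 and Cd248 -0.10 in the Has2 line, and Cd248 was 0.18 in the PH20 line. In the PH20 line the B cell score gave Anxa3 0.031, Cd34 0.10, Cd248 0.49 and Efhd1 0.15, the macrophage score Cd34 0.19, Cd248 0.48 and Efhd1 0.20, the skeletal muscle score Cd34 0.34, Cd248 0.87 and Efhd1 0.20, and leaving out the controls rich in B cell genes Cd34 0.054, Cd248 0.41 and Efhd1 0.089. A pseudocount of 1 gave Cd55 -0.0019 for the difference between lines. With each library left out, PH20 log2 fold changes ranged from -0.047 to 0.58 for Cd55, -0.99 to 0.022 for Anxa3, -0.21 to 0.60 for Sema3c, -2.13 to 0.10 for Wnt2, -0.70 to 0.14 for Cd34, -0.60 to 0.45 for Cd248 and -0.77 to 0.37 for Efhd1, and the difference between lines from -0.29 to 0.34 for Cd55. The markers called ranged from 0 to 2 between the controls (1 without Has2_WT4 or PH20_WT2, 2 without PH20_TG3) and from 0 to 8 for the difference between lines. Between the controls, all genes called higher numbered 606 of 12597 without Has2_WT4, 697 of 12614 without PH20_WT2 and 589 of 12615 without PH20_TG3. Where this left 3 libraries in a group, limma's pooled spread was used.

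Deviations of same-numbered libraries from their group means correlated at -0.18 to 0.13 in the Has2 line and -0.04 to 0.42 in the PH20 line. Different-numbered libraries were not compared in this way, so whether the replicate numbers pair the libraries is not settled. The main fits used no block. The fit with the replicate block gave 8 markers in the Has2 line, 0 in the PH20 line, 7 for the difference and 2 between the controls (Cd34 and Cd248). Over all genes it gave 750 higher of 12606 in the Has2 line, against 788 without the block. For the difference it gave 597 positive of 12593, against 507 without the block. Between the controls it gave 710 higher of 12593, against 587, so calls between the controls rose over all genes as well. In the PH20 line it gave 633 higher and 669 lower of 12532, against 401 and 425 without the block.

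After adjustment, all genes called higher in the Has2 line numbered 13 as reported, 26 with a pseudocount of 1, 36 with the skeletal muscle score, 48 with voom weights, 138 without Has2_WT4, 13 with median-of-ratios scaling, 1 with the B cell score and 0 under the other settings.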
